A study of Homo sapiens with 2 samples.

Results

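The control library of the series is described here, 1 of 2 RNA sequencing libraries of BHT101, a human line derived from an anaplastic thyroid carcinoma. It was chosen by its label as the control of an overexpression experiment, and the library of SETDB2-overexpressing cells was not used here. The labels call it thyroid cancer cells and give no agent, vector, clone or time for the control. Cells grew in DMEM with serum and pyruvate, and total RNA was sequenced. With 1 library there was no replicate, so no difference between cultures can be judged, no test was run, and every interval covers counting error only.

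The thyroid follicle is built of epithelial cells that store thyroglobulin, take up iodide and assemble thyroid hormone under the control of thyrotropin. The transcription factors NKX2-1, PAX8, FOXE1 and HHEX specify these cells during development and maintain the genes of hormone synthesis in the adult gland. Anaplastic carcinoma is the undifferentiated form of follicular cell cancer and is known for loss of these functions and for mesenchymal features. Cell lines grow without the fibroblasts, vessels and immune cells that surround a tumour.

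The authors deposited counts per gene and FPKM, the count divided by gene length and by a library constant. FPKM therefore allows levels to be compared between genes of different length. The length used is the union of all exons of a gene, so the order of genes can change with another choice of length. The library held 33572025 counts over 58735 genes, of which 26299 had at least 1 count. Protein-coding genes numbered 19951 and took 97.6% of the counts. At the median protein-coding length of 4215 bases, 1 FPKM corresponded to 143 counts and a count of 0 allowed a level of up to 0.021 FPKM (3 counts). A 95% exact Poisson interval reached 6.1% below and 6.4% above a value resting on 1000 counts, and 52.0% below and 83.9% above one resting on 10 counts.

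A total of 10507 protein-coding genes, 52.7%, stood at or above 1 FPKM, the level called present below, and 4430 genes, 22.2%, had 0 counts. The remaining genes had counts but lay under 1 FPKM. Among genes at or above 1 FPKM the median level was 7.69 FPKM and the median count 1381. The 95% interval spanned 1 FPKM for 492 genes, so the side of the threshold was clear of counting error for all others. Thresholds of 0.5, 5 and 10 FPKM left 11410 genes (57.2%), 6782 genes (34%) and 4270 genes (21.4%), and 292 genes (1.46%) stood at or above 100 FPKM. The distribution had a broad shoulder below 1 FPKM and a main body around 10 FPKM.

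**Figure D1:**
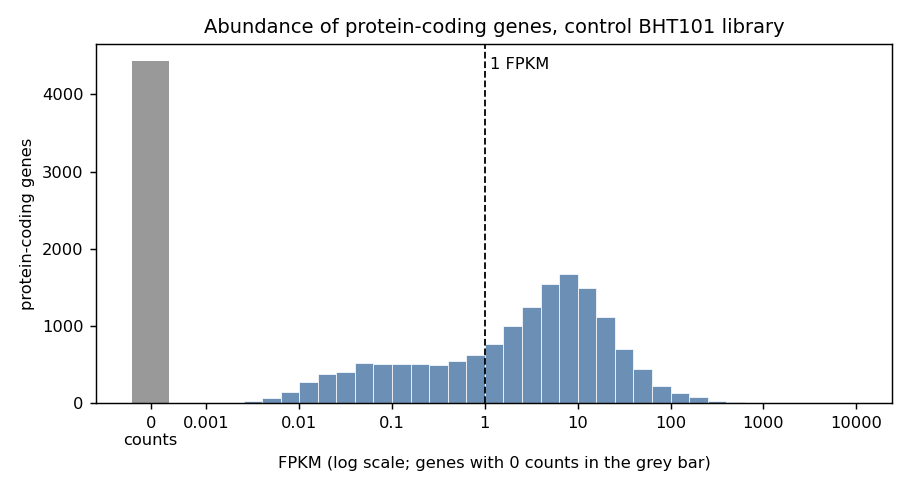
Number of protein-coding genes (vertical axis) by FPKM on a log scale (horizontal axis) in the control library, with the genes at 0 counts in a grey bar at the left and 1 FPKM as a dashed line. The grey bar holds 4430 genes and the part at or right of the line 10507 genes.

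The 13 mitochondrially encoded protein-coding genes held 20.0% of the protein-coding FPKM and 4.71% of all counts. The cytochrome oxidase subunit MT-CO1 was highest at 6322 FPKM, followed by MT-CO3 at 5774 and MT-CO2 at 5663 FPKM. Of nuclear genes, the elongation factor EEF1A1 came first at 1804 FPKM. The ferritin light chain gene FTL, which encodes an iron storage subunit, followed at 1539 FPKM, and TMSB10, a thymosin that binds actin monomers, at 1285 FPKM. Actin itself stood at 979 FPKM for ACTB, and the actin crosslinker FLNA at 900 FPKM. The glycolytic enzyme gene GAPDH had 890 FPKM and the RNA-binding factor gene YBX1 851 FPKM. The 10 most abundant nuclear genes held 5.59% of nuclear protein-coding FPKM, and 815 genes together reached 50% of it.

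Hormone synthesis genes of the thyroid follicle were near or at 0 in the line. Of 18 members, 1 stood at or above 1 FPKM (5.56%, against 52.7% of all protein-coding genes), 11 had counts under 1 FPKM and 6 had 0 counts. The list median was 0.0146 FPKM, against 1.37 FPKM for all protein-coding genes, the value that every list median below is read beside. Counts at or above 1 FPKM in every list below are likewise read beside the 52.7%. Thyroglobulin, TG (ENSG00000042832, chromosome 8, 132866958 to 133134903, GRCh38), the hormone precursor, had 6 counts or 0.0159 FPKM (0.0058 to 0.0347). The iodide symporter gene SLC5A5 (chromosome 19, 17871973 to 17895174) had 0 counts, which allows up to 0.0243 FPKM. The thyrotropin receptor gene TSHR had 2 counts (0.00597 FPKM).

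Other steps of the same pathway were as low. The iodide exporter gene SLC26A4, which encodes pendrin, had 0.0867 FPKM, the hydrogen peroxide generator DUOX1 0.0606 FPKM and the iodotyrosine deiodinase IYD 0.0171 FPKM. DUOX2 and its maturation factor DUOXA2 had 0 counts. DIO2, the deiodinase that converts thyroxine to the active hormone, was the exception with 1120 counts or 4.42 FPKM (4.16 to 4.68), rank 7190 of all protein-coding genes. Its relatives DIO1 and DIO3 had 1 and 0 counts.

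Thyroid transcription factors were low as well, with 3 of 8 at or above 1 FPKM and a median of 0.33 FPKM. NKX2-1 (chromosome 14, 36516392 to 36521149) had 0 counts, which allows up to 0.028 FPKM. PAX8 (chromosome 2, 113215997 to 113278950) had 42 counts or 0.168 FPKM (0.121 to 0.227), and FOXE1 21 counts or 0.179 FPKM (0.111 to 0.274). HHEX was present at 2.2 FPKM (188 counts), and GLIS3, a zinc finger factor needed for hormone synthesis, at 1.67 FPKM. The highest member, TTF2 at 7.54 FPKM, encodes a transcription termination factor that shares only an alias with a thyroid factor. The defining follicular markers SLC5A5 and NKX2-1 thus both had 0 counts in a library labelled as thyroid.

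No marker of the calcitonin-making C cells or of the parathyroid reached 1 FPKM among 11 genes. The calcitonin gene CALCA had 2 counts (0.0278 FPKM) and the granule protein gene CHGA 6 counts (0.0572 FPKM). The highest member was CHGB, a relative of CHGA, at 0.587 FPKM. RET, a receptor of neural crest derivatives, and the parathyroid hormone gene PTH had 0 counts, as did CEACAM5 and CASR.

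Keratins, the intermediate filaments of epithelia, were split by type. The simple epithelial keratins KRT19, KRT8, KRT18 and KRT7 had 168, 141, 117 and 95.5 FPKM, and KRT19 lay above 99.3% of protein-coding genes. Scaled by the longest transcript instead, KRT8 had 338 and KRT19 282 FPKM, so their order depends on the length used. The basal keratins of stratified epithelium, KRT5 and KRT14, had 6 and 5 counts (0.0413 and 0.0648 FPKM). KRT80, KRT81 and KRT17 lay between, at 15.1, 11.1 and 7.59 FPKM. Only 64% of the sampled pieces of KRT81 are unique to it, so its level is uncertain. KRT1, KRT13, KRT6A, KRT20 and KRT23 had 0 counts, and in all 10 of 20 keratins stood at or above 1 FPKM, with a median of 1.23 FPKM.

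Regulators of the epithelial state divided in another way. The 27 epithelial transcription factors and splicing regulators held 13 at or above 1 FPKM (48.1%), with a median of 0.643 FPKM. GRHL2, a grainyhead factor that maintains epithelial junction genes, had 1 count. OVOL1 had 0 counts, and ESRP1, a splicing regulator of epithelial cells, had 17 (0.103 FPKM), while its relative ESRP2 stood at 2.46 FPKM. TP63, the master factor of stratified epithelium, had 0.226 FPKM, and SOX2 and CDX2 had 0 counts. The Krueppel-like factor KLF4 was the highest at 38.5 FPKM. Factors known from endoderm and gut, FOXA2 (11.6 FPKM), GATA6 (6.44 FPKM) and HNF4A (2.52 FPKM), were present, while FOXA1 had 9 counts.

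Of 10 factors that drive epithelial to mesenchymal transition, 6 stood at or above 1 FPKM (60.0%, against 52.7% of all protein-coding genes), and the median was 1.56 FPKM. SNAI2, which represses E-cadherin, led at 30.6 FPKM (3510 counts). ZEB1 followed at 5.53, TWIST1 at 2.63, ZEB2 at 2.38 and SNAI1 at 2.03 FPKM. PRRX1, TWIST2 and FOXC2 had 0 counts.

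The mesenchymal cytoskeleton list held 11 of 14 members at or above 1 FPKM, with a median of 33.6 FPKM. TAGLN2, an actin-binding transgelin, had 464 FPKM, the calcium-binding S100A4 432 FPKM and vimentin, VIM, 145 FPKM (143 to 147). VIM lay above 99.1% of protein-coding genes, as did KRT8, so the library carried simple epithelial keratin and vimentin transcripts together. NES, the intermediate filament nestin, had 33.7 FPKM. TAGLN, the relative of TAGLN2 that was a defining member of the list, had only 2.15 FPKM (285 counts), and MYL9 had 9.1 FPKM. The members under 1 FPKM were ACTA2 at 0.318, CNN1 at 0.358 and DES at 0.456 FPKM. VIM shares 24.4% of its exon bases with other genes, and the part of such overlap in its value was not tested.

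**Figure D2:**
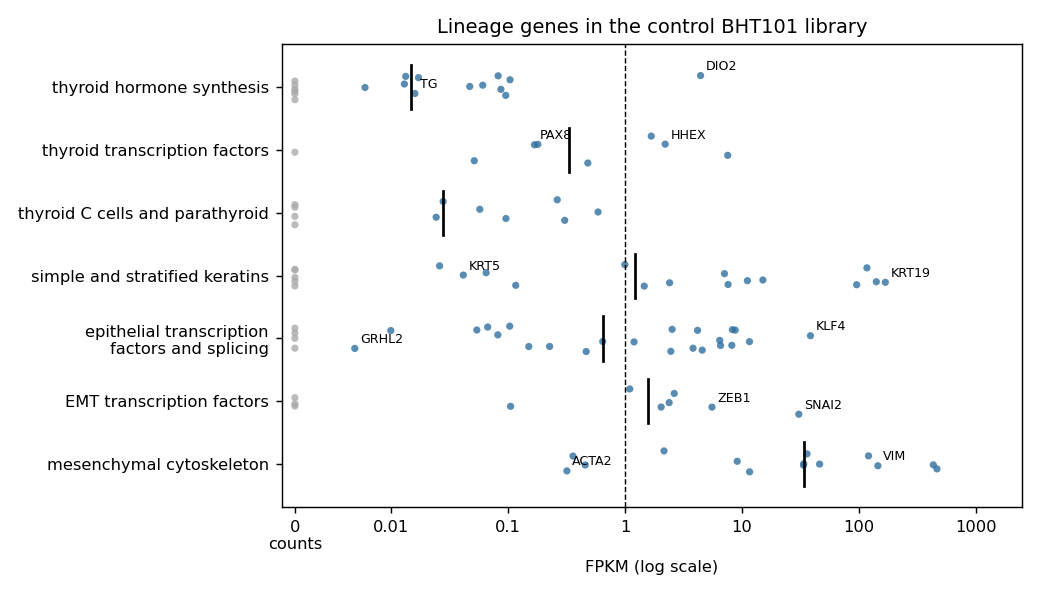
FPKM of each lineage gene (1 point per gene, log scale) in the control library, by list, with genes at 0 counts in grey at the left, the list median as a black bar and 1 FPKM as a dashed line. Of the 18 hormone synthesis genes DIO2 at 4.42 FPKM is the only point right of the line, while the mesenchymal cytoskeleton median is 33.6 FPKM.

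Receptors as a class stood near the background: 141 of 267 distinct members stood at or above 1 FPKM, 52.8% against 52.7% of all protein-coding genes. The differences lay between receptor types. Of 49 receptor tyrosine kinases, which signal through phosphorylation of their own tails and of adaptors, 19 were at or above 1 FPKM (38.8%), with a median of 0.298 FPKM. Of 53 G protein coupled receptors 15 were (28.3%, median 0.181 FPKM), and of 37 cytokine and TNF family receptors 27 were (73.0%, median 3.35 FPKM).

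MET, the receptor for hepatocyte growth factor (chromosome 7, 116672390 to 116798386), was the highest receptor tyrosine kinase with 24729 counts or 104 FPKM (103 to 105). The ephrin receptor EPHA2 followed at 86.8 FPKM (85.3 to 88.4), then AXL, the receptor for GAS6, at 68.9 FPKM (67.7 to 70.2) and EGFR at 50.2 FPKM (49.6 to 50.9). EPHB6, an ephrin receptor without kinase activity, had 49.6 FPKM, and its interval overlaps that of EGFR. After these came a step down to EPHB4 at 13.0 FPKM. FGFR1 and IGF1R had 6.34 and 5.8 FPKM.

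The partners of EGFR were far below it. ERBB2 had 1.88 FPKM, ERBB3 0.775 FPKM and ERBB4 0 counts. RET, FGFR2, NTRK3 and ROR2 also had 0 counts. Receptors of vessels and stroma were low, with 0.045 FPKM for KDR, 0.00706 for FLT1 and 0.0704 for PDGFRB, while PDGFRA stood at 1.32 FPKM.

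Ligands of these receptors were present at unequal levels. Amphiregulin, AREG, had 207 FPKM (11544 counts), epiregulin, EREG, 92.0 FPKM and TGFA 25.3 FPKM, all ligands of EGFR, whereas EGF itself had 0.333 FPKM. Hepatocyte growth factor, HGF, the ligand of MET, had 44 counts or 0.133 FPKM. VEGFC and VEGFA had 25.8 and 13.0 FPKM, while the VEGF receptor genes KDR and FLT1 had the low values given above. The macrophage growth factor CSF1 had 18.8 FPKM and its receptor CSF1R 0.298 FPKM. IGF1 had 2 counts, but 82.4% of its exon bases are shared with another gene, so this value is uncertain.

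Among cytokine and TNF family receptors, TNFRSF12A, the receptor for TWEAK, led at 81.9 FPKM. The TNF receptor TNFRSF1A had 65.9 FPKM, TNFRSF21 57.3 FPKM and the TRAIL receptor TNFRSF10B 53.2 FPKM. The shared signal transducer of the interleukin-6 family, IL6ST, had 45.6 FPKM and its partner OSMR 20.2 FPKM, with LIFR at 2.43 FPKM. FAS, a death receptor, was lower at 1.62 FPKM. IFNAR2 was listed at 0.224 FPKM with 83.2% of its exon bases shared with other genes, so its level is uncertain.

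Receptors for TGF-beta, WNT and NOTCH signals were present in 21 of 30 cases (70.0%), with a median of 1.88 FPKM. TGFBR2, the ligand-binding TGF-beta receptor, had 55.0 FPKM and NOTCH2 34.1 FPKM, against 4.85 for NOTCH1, 0.252 for NOTCH3 and 0.0394 for NOTCH4. LRP5, a WNT coreceptor, had 27.2 FPKM and its relative LRP6 7.28 FPKM. Of the frizzled receptors FZD6 was the highest at 15.9 FPKM, and FZD10 had 0 counts. The hedgehog transducer SMO had 0 counts as well, although 98.6% of its sampled pieces are unique to it.

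The most abundant G protein coupled receptor was F2RL1, a receptor cut open by trypsin-like proteases, at 45.2 FPKM. The thrombin receptor F2R had 20.3 FPKM. The adhesion receptor ADGRG6 stood at 44.1 FPKM and ADGRE5 at 25.9 FPKM. LGR4, a receptor for R-spondins, had 12.3 FPKM while its stem cell relative LGR5 had 0 counts and LGR6 1 count. Of the chemokine receptors, counts were 0 for CXCR4, ACKR3 and CCR7 and 10 for CCR1.

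Nuclear receptors, which are transcription factors switched by small lipophilic ligands, were at or above 1 FPKM in 25 of 48 cases (52.1%), with a median of 1.38 FPKM. The glucocorticoid receptor NR3C1 led at 31.2 FPKM. ESRRA, an orphan receptor of energy metabolism, had 26.5 FPKM and the clock repressor NR1D2 19.5 FPKM. PPARG had 11 FPKM, and the thyroid hormone receptors THRB and THRA 2.37 and 2.01 FPKM. Of the sex steroid receptors, ESR1 had 0.032 FPKM and PGR 0 counts.

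Surface antigens and uptake receptors were present in 34 of 50 cases (68%, against 52.7% of all protein-coding genes), with a median of 8.85 FPKM. Of the 50, 23 reached 10 FPKM, as did 21.4% of all protein-coding genes. The tetraspanin CD63 had 139 FPKM, the hyaluronan receptor CD44 109 FPKM and NT5E, the ectoenzyme CD73 that makes adenosine, 98.3 FPKM. The adenosine receptor ADORA2B stood at 8.38 FPKM. The transferrin receptor TFRC had 54.8 FPKM and the poliovirus receptor PVR 47.7 FPKM. Of immune checkpoint ligands, CD274, which encodes PD-L1, had 9.64 FPKM, CD276 7.61, PDCD1LG2 2.01 and VTCN1 0 counts. Class I HLA-C had 82.2 FPKM and B2M 78.7 FPKM, while HLA-B had 2.1 FPKM and the class II genes HLA-DRA and HLA-DRB1 had 0 counts. EPCAM, an epithelial surface marker, was moderate at 5.79 FPKM (5.29 to 6.32).

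Adhesion genes held 68 of 138 distinct members at or above 1 FPKM (49.3%, against 52.7% of all protein-coding genes). Of 30 genes of cadherins and their plaques 12 were, with a median of 0.401 FPKM, and N-cadherin stood far above E-cadherin. CDH2 (chromosome 18, 27950966 to 28177446), the cadherin of neural and mesenchymal cells, had 7173 counts or 42.8 FPKM (41.9 to 43.8), above 95.6% of protein-coding genes. CDH1 (chromosome 16, 68737225 to 68835548), the epithelial cadherin, had 121 counts or 0.579 FPKM (0.481 to 0.692). P-cadherin, CDH3, had 12 counts, and CDH16, the cadherin of kidney and thyroid, had 0. CDH11, a cadherin of mesenchyme, stood at 3.92 FPKM.

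Catenins and desmosomal genes ranged widely around the level of CDH1. CTNNA1, which links cadherins to actin, had 93 FPKM, CTNND1 35.3 and CTNNB1 27 FPKM. Of desmosome parts, the cadherin DSG2 had 39.7 FPKM, the plaque protein DSP 24.1 and JUP 19.6 FPKM, while the partner cadherin DSC2 had 37 counts (0.0875 FPKM). The plaque genes PKP2 and PKP1 had 0.487 and 0.424 FPKM, and the catenin gene CTNNA2 had 0 counts. DSG1, DSC1 and DSG4, which belong to the skin, had 0 counts.

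Tight junction genes were present in 11 of 28 cases (39.3%), with a median of 0.504 FPKM. CLDN4 and CLDN1 had 25.4 and 20.7 FPKM and the scaffold gene TJP1 22.4 FPKM. Occludin, OCLN, had 0.84 FPKM, CLDN7 2.86 and CLDN3 0.65 FPKM. CLDN5, CLDN6, CLDN8 and CLDN19 had 0 counts.

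Integrins bind matrix as pairs of an alpha and a beta chain. They were present in 14 of 26 cases (53.8%, against 52.7% of all protein-coding genes), with a median of 1.38 FPKM. The common beta chain ITGB1 had 249 FPKM (50642 counts). Its collagen-binding partner ITGA2 had 101 FPKM, the laminin-binding ITGA3 97.6 and ITGA6 39.0 FPKM, the vitronectin-binding ITGAV 61.7 and the fibronectin-binding ITGA5 11.3 FPKM. The beta chain of hemidesmosomes, ITGB4, had 6.03 FPKM. Of chains known from leukocytes, ITGA4 and ITGAE had 1.69 and 1.57 FPKM, ITGB2 had 0.692 FPKM and ITGAL 0 counts.

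Other adhesion molecules were present in 14 of 31 cases, with a median of 0.83 FPKM. L1CAM, a neural adhesion molecule, led at 62.6 FPKM, and VCAM1, which binds leukocyte integrins and is known from activated endothelium, followed at 54.7 FPKM (11186 counts). ALCAM had 16.3 FPKM and ICAM1 11.9 FPKM. NCAM1 had 12 counts, and SELE, THY1 and CHL1 had 0. Of focal adhesion and gap junction genes 17 of 23 were at or above 1 FPKM, with a median of 9.89 FPKM. Beside FLNA, the zyxin gene ZYX had 87.7 FPKM, the talin gene TLN1 57.7 and the vinculin gene VCL 45.1 FPKM. The gap junction genes GJA1 and GJB2 had 24.5 and 19.8 FPKM. ILK was listed at 0.263 FPKM, but 78.5% of its exon bases are shared with other genes.

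**Figure D3:**
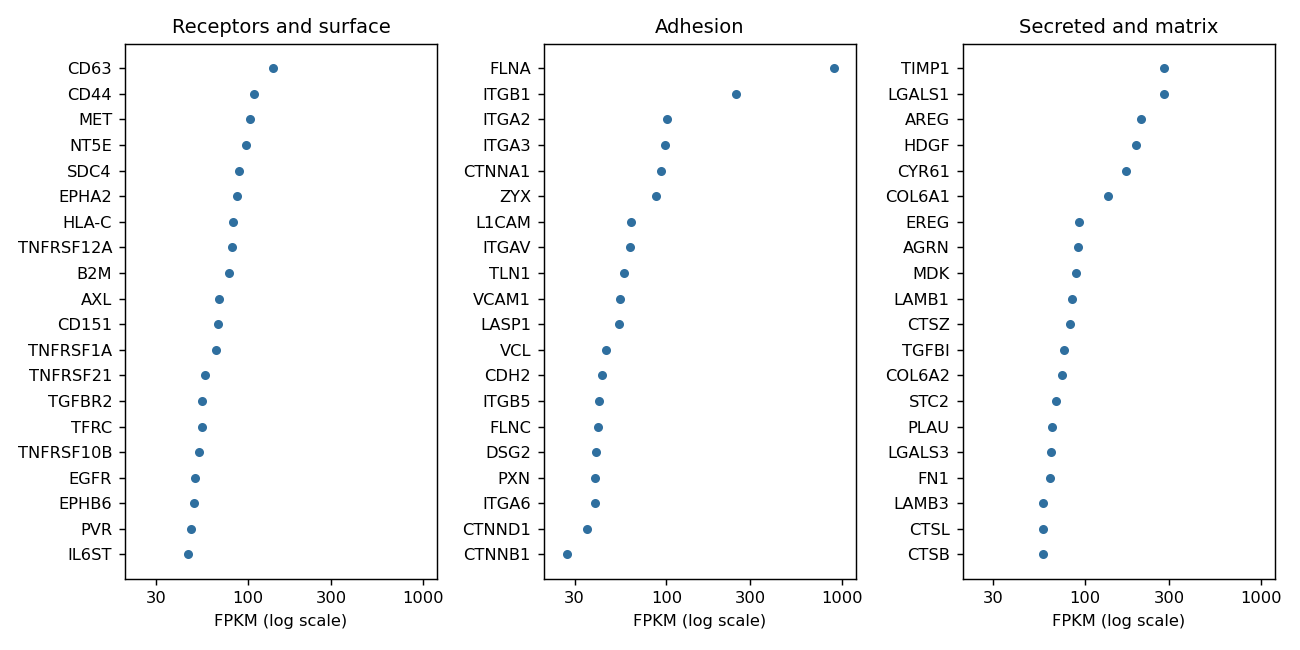
The 20 members with the highest FPKM (horizontal axis, log scale) of those reported here among receptor and surface genes, adhesion genes, and secreted and matrix genes in the control library. Points are single values from 1 library, and their 95% Poisson counting intervals are narrower than the points. CD63 (139 FPKM), FLNA (900 FPKM) and, close together, TIMP1 and LGALS1 (281 FPKM each) lead.

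Secreted and matrix genes held 138 of 266 distinct members at or above 1 FPKM (51.9%, against 52.7% of all protein-coding genes). Of the 266, 8 reached 100 FPKM, as did 1.46% of all protein-coding genes. Of those reported here, the metalloprotease inhibitor TIMP1 and the galectin LGALS1 were the highest with 281 FPKM each. Amphiregulin was next at the 207 FPKM given above, then HDGF at 194 and the matricellular CYR61 at 169 FPKM.

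Basement membrane genes were present in 18 of 24 cases (75%), with a median of 6.59 FPKM. LAMB3 had 57.6 FPKM and LAMA3 9.88 FPKM, chains of a laminin that anchors epithelia. LAMB1 had 83.7 FPKM, LAMC1 35.7 and LAMA5 19.4 FPKM. The proteoglycan agrin, AGRN, had 90.8 FPKM, while COL4A1 and HSPG2 had 6.37 and 4.53 FPKM. LAMC3 had 0 counts.

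Interstitial matrix genes covered a wide range. COL6A1 and COL6A2 had 134 and 73.5 FPKM. Fibronectin, FN1, had 63.2 FPKM, TGFBI 76.1, VCAN 38.6 and thrombospondin THBS1 21.6 FPKM. Of the fibrillar collagens COL5A2 and COL5A1 had 8.32 and 7.47 FPKM, COL1A1 and COL1A2 1.61 and 0.617 FPKM, and COL3A1 had 1 count. Periostin, POSTN, and decorin, DCN, had 9 and 14 counts, and osteopontin, SPP1, had 12. All 37 members had at least 1 count, 23 stood at or above 1 FPKM, and the median was 7.47 FPKM.

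Growth factors beyond the EGFR ligands included midkine, MDK, at 88.9 FPKM, the hormone-like STC2 at 68.2 and progranulin, GRN, at 47.2 FPKM. The NOTCH ligand JAG1 had 42.2 FPKM, TGFB1 34.6 and GDF15 25.4 FPKM. FGF2 had 4.36 FPKM and the WNT antagonist DKK1 2.49 FPKM. WNT7B was the highest WNT ligand in the list at 7.4 FPKM, WNT5A had 25 counts, and FGF19 and WNT7A had 0. In all 33 of 62 growth factors were at or above 1 FPKM (53.2%), with a median of 1.26 FPKM.

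Cytokines and chemokines were present in 16 of 44 cases (36.4%), the median was 0.627 FPKM, and none reached 20 FPKM. After CSF1 at 18.8 FPKM came CXCL5, a neutrophil chemokine, at 14.9 and CCL5, a lymphocyte chemokine, at 14.4 FPKM. LIF had 7.51 FPKM, CXCL8 2.48 and IL6 1.44 FPKM. IL1A, IL1B and TNF had 3, 9 and 16 counts. The interferon genes IFNB1, IFNL1 and IFNG had 0 counts, and IFNA1 had 2. MIF was listed at 0.56 FPKM with 61.9% of its exon bases shared, so its level is unknown.

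Of extracellular and lysosomal proteases and crosslinking enzymes 22 of 47 were at or above 1 FPKM (46.8%), with a median of 0.602 FPKM. The cathepsin genes CTSZ, CTSL and CTSB had 81.9, 57.4 and 57.4 FPKM. Urokinase, PLAU, had 64.9 FPKM beside its receptor PLAUR at 17.3 FPKM, while the other activator, PLAT, had 0.563 FPKM. Of metalloproteases, the membrane-bound MMP14 had 47.0 FPKM and the gelatinase MMP2 11.6 FPKM. MMP1 and MMP9 had 26 and 4 counts, and MMP7 had 0. ADAM9 had 48.3 FPKM and the crosslinking enzymes TGM2 and LOXL2 39.7 and 9.81 FPKM, while LOX had 0.602 FPKM.

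Inhibitors and carrier proteins were present in 26 of 52 cases (50%, against 52.7% of all protein-coding genes), with a median of 1.53 FPKM. TIMP3 and TIMP2 had 56.7 and 30.2 FPKM, IGFBP4 44.6 and cystatin, CST3, 30.7 FPKM. IGFBP3 had 3.34 FPKM and clusterin, CLU, 7.82 FPKM. Plasma proteins of the liver were near 0, with 2 counts for ALB and A2M, 4 for APOB and 0 for APOA1, FGA, HP and AHSG. SERPINA1 departed from these at 9.09 FPKM (1508 counts).

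Genes that mark other tissues were mostly under 1 FPKM. Of 214 distinct members, 20 stood at or above 1 FPKM (9.35%, against 52.7% of all protein-coding genes) and 106 had 0 counts, against 4430 or 22.2% of all protein-coding genes. The lists were chosen with earlier results of these data known, so these shares describe the chosen genes and are no test. None of 23 protein-coding lymphocyte and none of 24 myeloid and erythroid markers reached 1 FPKM, and the medians were 0.00582 and 0.00484 FPKM. PTPRC, the pan-leukocyte phosphatase, had 3 counts (0.00967 FPKM), and CD3E, MS4A1, CD79A, SPI1, TYROBP, AIF1 and GATA1 had 0. The highest members of these lists were CD3D at 0.636 FPKM (20 counts) and CD14 at 0.596 FPKM (38 counts).

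A T cell receptor gene departed from these. TRBC1, a constant segment of the receptor beta chain that the annotation does not class as protein-coding, had 603 counts or 23.5 FPKM (21.6 to 25.4), so with it 1 of 24 lymphocyte markers stood at or above 1 FPKM. Its near-identical neighbour TRBC2, looked up after this value was seen, had 5017 counts or 196 FPKM (190.3 to 201), and how reads were split between them is not known. The alpha chain segment TRAC had 3 counts, and TRDC, TRGC1 and TRGC2 had 0. The T cell genes CD3D and CD3E had 20 and 0 counts in the same library.

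Endothelial and fibroblast markers were low apart from 3 of 24, with a median of 0.0338 FPKM. CDH5, CLDN5, ERG and EMCN had 0 counts, VWF 8, FAP 5 and COL3A1 1. LUM, which encodes the proteoglycan lumican, had 1567 counts or 15.4 FPKM, beside 14 counts for DCN and 1 for COL3A1, other genes of fibroblasts. ESAM had 1.67 FPKM and PDGFRA 1.32 FPKM, with 77.4% of the PDGFRA pieces unique.

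Neural markers held 3 of 27 at or above 1 FPKM. MBP, named for myelin basic protein, had 8062 counts or 12.8 FPKM, and the synaptic vesicle gene SYT1 1728 counts or 7.87 FPKM. The myelin gene MOG, the neuronal genes RBFOX3 and NEFL and the oligodendrocyte factor OLIG2 had 0 counts. Of muscle markers MB was the only 1 of 24 at or above 1 FPKM, at 1.01 FPKM, and MYOD1, MYOG and CKM had 0. In the liver, pancreas, gut and kidney list 22 of 34 had 0 counts, INS, GCG, UMOD, AQP2 and FABP2 among them. VIL1, of brush borders, was the highest there at 1.85 FPKM with 44.0% of its exon bases shared.

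In the lung and skin list 15 of 22 genes had 0 counts. The surfactant genes SFTPC, SFTPB and SFTPA1 and the club cell gene SCGB1A1 were among them, as were TYR and LOR. MITF, a factor of melanocytes that is also known from other cells, had 7.16 FPKM, and filaggrin, FLG, of the skin barrier, had 2411 counts or 5.59 FPKM. AGER and SPRR3 had 1.37 and 1.07 FPKM.

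Germline genes were split. MAGEA3 and MAGEA6, cancer-testis genes on the X chromosome, had 172 and 137 FPKM, but 60.3% of the pieces of each are unique, so the level of each is uncertain. PAGE5 had 67.0 FPKM (1685 counts) and CTAG2, with 62.2% of its pieces unique, 50.7 FPKM. MAGEA4, PRAME, SSX1, SSX2 and PAGE1 had 0 counts, MAGEA10 had 2 and MAGEA1 42. Genes of germ cells proper were near 0, with 0 counts for DAZL, PRM1, PRM2, TNP1 and SYCP1 and 4 for DDX4. The pluripotency genes NANOG and POU5F1 had 1 and 7 counts, and LIN28A had 0. The list as a whole held 8 of 36 at or above 1 FPKM (22.2%), with a median of 0.0105 FPKM.

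**Figure D4:**
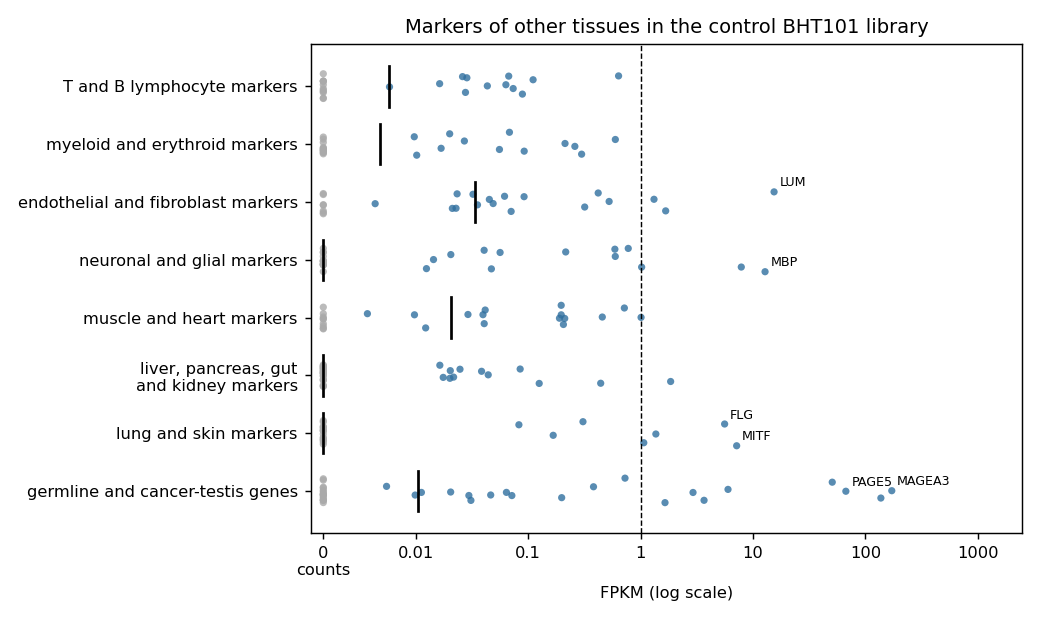
FPKM of each marker gene of other tissues (1 point per gene, log scale) in the control library, by list, with genes at 0 counts in grey at the left, the list median as a black bar and 1 FPKM as a dashed line. Most points lie left of the line, and MAGEA3 at 172 FPKM lies farthest right.

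Large families accounted for part of the undetected genes. Of 386 olfactory receptor genes 352 had 0 counts and 3 stood at or above 1 FPKM, led by OR51B4 at 3.74 FPKM and OR4C6 at 3.67 FPKM. All 94 keratin-associated protein genes and 43 of 45 defensin genes had 0 counts. Of 53 clustered protocadherin genes, whose products label neurons, 3 reached 1 FPKM and 13 had 0 counts. The part of exon overlap or shared sequence in the low values of these families was not tested. At the other end, 81 of 85 genes with ribosomal protein symbols stood at or above 1 FPKM, with a median of 149 FPKM and RPS12 the highest at 903 FPKM.

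Detection varied with exon overlap in the annotation, without a steady order. Among 11097 protein-coding genes with no exon base shared with another gene, 48.9% stood at or above 1 FPKM and 2992 had 0 counts. The share at or above 1 FPKM was 66.5% among genes with up to 20% of exon bases shared and 55.2% among those with 20 to 50% shared. Among 1133 genes with over 50% of exon bases shared, 9.36% stood at or above 1 FPKM and 59.0% had 0 counts. Similarly, 5.56% of 1062 genes with at most 20% unique pieces reached 1 FPKM, against 52.1% of those with 50 to 80% and 53.8% of those with all pieces unique. A count of 0 in a gene with few unique pieces or large overlap is therefore uncertain. Of the genes named here as 0, OVOL1, KRT6A, DUOXA2, INS and SSX2 have under 80% unique pieces.

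Promoter sequence was set beside transcript level, since it was no part of how genes were grouped. For 14866 protein-coding genes, windows of 300 bases (250 before to 50 after the RefSeq start, GRCh38.p14) were matched by Ensembl identifier or else by symbol. The other 5085 genes had no entry or were left out by chromosome, as duplicates or for a chromosome mismatch. The median number of CG dinucleotides was 5 for genes with 0 counts, 16 for those under 1 FPKM, 26 from 1 to 10 FPKM, 28 from 10 to 100 and 27 at 100 FPKM and over. Under 5 CG dinucleotides were found in 45.2% of windows at 0 counts and in 2.36% at 100 FPKM and over. The letters TATAAA, searched on the gene's strand in the 50 bases before the start, were present in 9.22%, 4.76%, 1.33%, 1.22% and 6.13% of windows in the same order of classes, and in 3.71% of all. GGGCGG on either strand was present in 32.2% of windows at 0 counts, in 75.9% at 100 FPKM and over, and in 59.4% of all. Genes within a class share clusters and families, so these are descriptions of the annotated genes and were not tested.

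**Figure D5:**
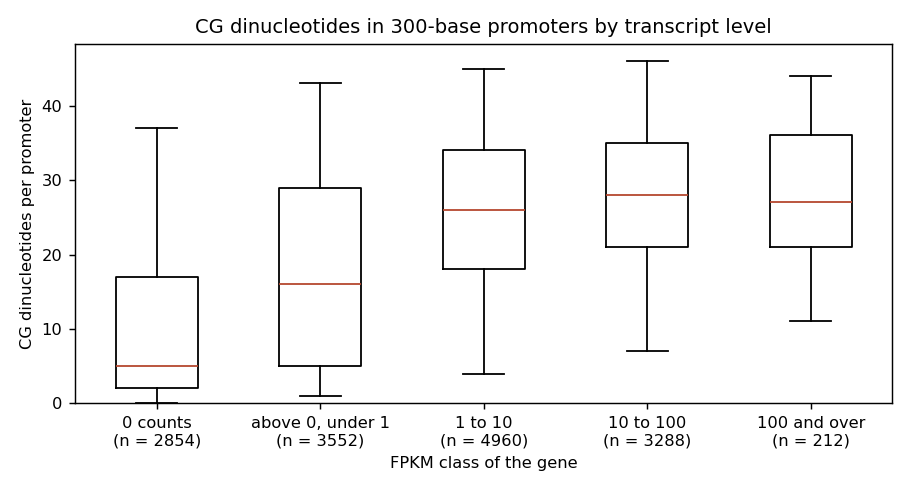
CG dinucleotides per 300-base promoter (vertical axis) by FPKM class of the gene in the control library (horizontal axis). Boxes span the quartiles, red lines are medians and whiskers reach the 5th and 95th percentiles of genes. Medians are 5, 16, 26, 28 and 27 from the lowest class to the highest.

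The 4 windows below were chosen after their values were seen, 2 from abundant genes and 2 from thyroid genes with 0 counts. The quartiles of CG dinucleotides were 21 to 36 at 100 FPKM and over and 2 to 17 at 0 counts. S100A4 and NKX2-1 lay outside the quartiles of their classes, while MET and SLC5A5 lay inside. Capitals mark CG dinucleotides and, before the start, TATAAA, and all 4 windows are RefSeq GRCh38.p14 sequence written 5′ to 3′ on the gene's strand. MET (104 FPKM, chr7:116671946-116672245, plus strand) has 30 CG dinucleotides and no TATAAA, and S100A4 (432 FPKM, chr1:153545757-153546056, minus strand) has 8 and a TATAAA. NKX2-1 (0 counts, chr14:36520183-36520482, minus strand) has 21, the lower quartile of both classes at 10 FPKM and over, and SLC5A5 (0 counts, chr19:17871695-17871994, plus strand) has 12.
MET: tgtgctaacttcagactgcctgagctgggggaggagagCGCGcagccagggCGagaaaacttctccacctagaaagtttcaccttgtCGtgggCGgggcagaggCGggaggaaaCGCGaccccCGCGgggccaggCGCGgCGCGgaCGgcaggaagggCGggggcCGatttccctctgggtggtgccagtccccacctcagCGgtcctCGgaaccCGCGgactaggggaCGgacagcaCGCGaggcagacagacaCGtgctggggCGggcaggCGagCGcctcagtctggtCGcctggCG
S100A4: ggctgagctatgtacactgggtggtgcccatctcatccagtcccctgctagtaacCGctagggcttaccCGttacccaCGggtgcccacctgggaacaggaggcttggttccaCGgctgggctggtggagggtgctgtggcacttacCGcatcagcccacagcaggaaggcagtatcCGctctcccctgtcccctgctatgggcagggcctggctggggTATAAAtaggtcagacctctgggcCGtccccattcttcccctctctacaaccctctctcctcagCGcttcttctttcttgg
NKX2-1: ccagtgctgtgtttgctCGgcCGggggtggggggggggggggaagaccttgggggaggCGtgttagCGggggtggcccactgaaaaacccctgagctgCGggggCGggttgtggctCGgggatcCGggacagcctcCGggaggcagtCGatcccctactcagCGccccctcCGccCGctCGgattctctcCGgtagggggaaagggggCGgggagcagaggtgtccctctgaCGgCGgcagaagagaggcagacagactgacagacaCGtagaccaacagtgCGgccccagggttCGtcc
SLC5A5: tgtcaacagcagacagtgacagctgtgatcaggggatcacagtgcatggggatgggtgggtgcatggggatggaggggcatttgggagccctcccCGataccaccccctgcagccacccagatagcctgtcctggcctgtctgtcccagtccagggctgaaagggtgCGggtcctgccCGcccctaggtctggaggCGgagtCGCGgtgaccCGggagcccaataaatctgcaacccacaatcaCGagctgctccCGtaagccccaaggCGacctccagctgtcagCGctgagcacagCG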

How the data were processed

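Per the labels, the control cells were BHT101 and RNA was purified with TRIzol and a column kit. The authors deposited whole-number counts per gene and FPKM, with gene length in bases. The submitters' processing notes list the aligners TopHat2 (2.0.9) and Bowtie2 (2.0.6) beside Cufflinks and Cuffdiff (both 2.1.1). The sources used here do not give the counting program, its strand setting or its handling of shared reads. The FPKM that the authors deposited came to their count over gene length and a constant of 33825552.8 counts, 1.00755 times the total. The deposited gene length equalled the union of GENCODE 29 exons (GRCh38) for all 58735 genes.

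From the deposited values, exact Poisson 95% intervals, ranks among protein-coding genes and counts at or above 1 FPKM were computed (Python 3.11.15, scipy 1.17.1, pandas 2.3.3), and the interval was tested on simulated data. No test between conditions was possible, so none was run. The 32 gene lists (969 distinct genes) and the named genes were chosen with earlier results of these data known. Named genes were the 20 protein-coding genes with the highest FPKM and, in each list, its defining members, its 6 highest and those with 0 counts, and the 5 highest of each symbol family. Other list members named for comparison were chosen after their values were seen. A list gene of T cell receptor type, TRBC1, is not classed as protein-coding, was left out of the list counts and is given separately. Some named genes are not reported here. Uniqueness is the share of 75-base pieces, taken every 25 bases of the longest transcript, found in no other gene. Alternatives were thresholds of 0.5, 5 and 10 FPKM, any count, a minimum count of 50, at most 3 counts in place of 0, leaving out olfactory receptor or mitochondrially encoded genes, list medians over members with counts, TPM, and the length of the longest transcript.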

Additional observations from a re-analysis of the deposited data

How the results depend on the processing

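Of the values that answer the report's questions, thresholds moved the counts most. Of 19951 protein-coding genes, 6782 (34%) stood at or above 5 FPKM, 4270 (21.4%) at or above 10 FPKM and 15521 had any count. Lineage genes numbered 28 at 5 FPKM, 18 at 10 FPKM and 85 with any count. Receptor genes numbered 90, 62 and 237 at the same settings. Adhesion genes numbered 37 at 10 FPKM and 114 with any count, and secreted genes 66 and 239. Of 214 markers of other tissues, 10 stood at or above 5 FPKM and 6 at or above 10 FPKM. Any count was found for 108, and 35 reached 1 TPM. Restricted to genes with at least 80% unique pieces and under 10% shared exon bases, the number was 10. That setting was chosen after seeing the data and also leaves fewer of the 214 to count. The share of the 10 most abundant genes was 18.0% of protein-coding FPKM, 5.59% without mitochondrially encoded genes and 6.47% in counts. The other settings kept each of these counts within 1.5 times, the 4430 genes at 0 counts included. Of the 32 single lists, 26 moved by over 1.5 times at 10 FPKM, 24 with any count, 18 at 5 FPKM, 5 at 0.5 FPKM, 9 at 1 TPM, 4 with unique and unshared genes only, 1 with the length of the longest transcript and 0 with a minimum count of 50. TPM is 3.79 times FPKM here for every gene, so ranks are the same. Scaling by the longest transcript raised 28 of 337 named genes over 2-fold and brought 7 to 1 FPKM. No paired analysis was possible because the control library has no replicate and no comparison was made. Depth limits values under about 100 counts, where the interval reaches 18.6% below and 21.6% above.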

Other observations

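Further groups were looked up after other values of the library had been seen, and are given as values, with the share of all protein-coding genes at or above 1 FPKM, 52.7%, as background to each count. All 19 proliferation and cell cycle genes stood at or above 1 FPKM, with PCNA at 115, the D-type cyclin gene CCND1 at 85.7, TOP2A at 77.3 and MKI67 at 41.3 FPKM. The inhibitors CDKN1A, CDKN2B and CDKN2A were present at 32.0, 16.1 and 12.2 FPKM. All 16 ERK feedback and output genes were present too, led by MYC at 305 and FOSL1 at 111 FPKM, with SPRY4 at 34 and DUSP5 at 34.5 FPKM. Of 23 genes often altered in thyroid carcinoma 20 were at or above 1 FPKM, NRAS at 45.9, HRAS at 27.1 and BRAF at 3.21 FPKM among them. The telomerase gene TERT had 342 counts or 2.2 FPKM. Of 11 iron storage and transport genes 8 were at or above 1 FPKM. Counts per gene carry no information on mutations.

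Of 28 genes of glucose uptake and glycolysis, 20 stood at or above 1 FPKM (71.4%). ENO1 had 627, TPI1 324, PKM 249 and LDHA 179 FPKM. The glucose transporters SLC2A1 and SLC2A3 had 35.1 and 6.72 FPKM, and SLC2A2 had 0 counts. ALDOA was listed at 0.966 FPKM with 53.5% of its exon bases shared. Of 374 SLC genes the amino acid transporter SLC7A5 was highest at 375 FPKM, and its partner SLC3A2 had 150 FPKM.

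Of 1548 protein-coding genes that the authors' table assigns to transcription factor families, 847 stood at or above 1 FPKM (54.7%, against 52.7% of all protein-coding genes). The families differed. Homeobox genes were at or above 1 FPKM in 36 of 191 cases (18.8%), zinc fingers of the C2H2 type in 385 of 627 (61.4%) and bZIP factors in 37 of 48 (77.1%). After YBX1 the highest were HMGA1 at 411, CNBP at 366 and MYC. HOX genes followed their clusters, with 8 of 10 HOXB genes at or above 1 FPKM, 1 of 11 HOXA, 1 of 9 HOXC and 0 of 9 HOXD. HOXB9 was the highest at 14.1 FPKM, and all 9 HOXD genes had 0 counts. Calcium-binding S100A11, S100A6 and S100A10 had 496, 396 and 230 FPKM, and the annexins ANXA1, ANXA2 and ANXA5 179, 168 and 127 FPKM.

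Chromosomes 1 to 22 and X were compared by their share of protein-coding genes at or above 1 FPKM. This share ran between 41.6% on chromosome 21 and 57.3% on chromosome 10, with 43.8% on X. Without olfactory receptor and keratin-associated genes, X was lowest at 43.8% and chromosome 14 highest at 58.1%.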
